A study of Mus musculus with 6 samples.

Results

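The NF-kB subunits and the IkB proteins were described here through 10 mouse genes, picked by symbol from the deposited tables of read counts and FPKM (reads scaled by gene length and library size). They are the canonical subunit genes Rela, Rel and Nfkb1, the canonical inhibitor genes Nfkbia, Nfkbib and Nfkbie, the noncanonical subunit genes Relb and Nfkb2, and the nuclear IkB genes Nfkbiz and Bcl3. All 10 were among the 22913 genes of the count table and among the 12827 genes with enough reads to be tested. The samples were HL-1 cells, a mouse line from atrial heart muscle, in 2 groups of 3 libraries of polyadenylated RNA. One group had received an HSPA1A overexpression plasmid, labelled as human; HSPA1A is a stress-inducible HSP70 chaperone. The other had received a control plasmid. Both were transfected with a lipid reagent and harvested 48 h later. All 6 libraries came from 1 cell line, and nothing in the labels says that the replicates were separate cultures, so the p-values cover the spread between libraries, which may be technical.

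NF-kB is a family of dimeric transcription factors that drives genes of inflammation and cell survival. In the canonical pathway, dimers of RelA or c-Rel with p50, the product of Nfkb1, are held in the cytoplasm by IkB proteins until the kinase complex IKK marks the IkB for destruction. In the noncanonical pathway, the kinase NIK (Map3k14) and IKKα (Chuk) trigger the cutting of p100, the product of Nfkb2, into p52, which partners RelB. Several of these genes, including Nfkbia, Nfkb2 and Relb, are themselves known NF-kB targets, and Nfkbiz and Bcl3 encode IkB-like proteins that act in the nucleus with p50 or p52.

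The libraries held between 23849656 and 26897086 reads. Mouse Hspa1a, near the floor, had 17, 20 and 11 reads in HSPA1A libraries and 10, 17 and 11 in control libraries, and was not called (adjusted p = 0.795). How far transcripts of the human plasmid align to mouse genes was not tested, so the overexpression itself was not checked in these tables, and the group is called HSPA1A by its label. The labels' treatment text, the same for both groups, instead names an OE_RNA directed against the human gene. HSPA1A replicate 2 lay with the control libraries on the first principal component (15.1, against 4.33 to 8.27 for control libraries), while HSPA1A replicates 1 and 3 lay at -15.9 and -18.3. The share of reads on the noncoding transcript Yam1 was 2.70%, 1.58% and 2.53% in HSPA1A replicates 1, 2 and 3 and 1.86%, 1.18% and 1.23% in control replicates 1, 2 and 3. Of 16 heart muscle markers, 12 were in the count table, and Nppa, Myh6, Myl7 and Sln were absent from it. The summed level of the 12 was 642 to 681 CPM (counts scaled to library size) in HSPA1A and 712 to 734 CPM in control libraries. Most of that was Des, and Gata4 and Tnnt2 were also present, but Actc1, Actn2, Ryr2, Tnni3, Myh7 and Tbx5 averaged under 1 CPM. Of the immune cell markers only Cd68 averaged over 1 CPM, with a summed level over 6 detected markers of 4.44 to 7.57 CPM in HSPA1A and 3.56 to 5.57 CPM in control libraries. The pan-leukocyte gene Ptprc was at the floor in both groups, with 0 reads in every HSPA1A library and 1, 1 and 0 in control replicates 1, 2 and 3. The 5 detected endothelial markers summed to under 1 CPM in each library, and the 6 detected fibroblast markers, led by Col1a1, to 84.6 to 96.0 CPM in HSPA1A and 96.9 to 104 CPM in control libraries. The part of these marker levels in the results was not tested.

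All 10 genes had a lower fitted level in HSPA1A than in control cells, and 3 passed the test over all genes: Nfkbiz, Relb and Nfkb2. The called genes were both noncanonical subunits and 1 of 2 nuclear IkB genes. Of the 6 canonical genes edgeR called 0, with 1 at an unadjusted p under 0.05, and DESeq2 called 1, in both cases Nfkbia. Over all 12827 tested genes, 0.156% were called lower and 0.0234% higher at an adjusted p under 0.05, and 49.0% had a log2 fold change below 0. At an unadjusted p under 0.05, 5 of the 10 were lower, as were 4.26% of all. DESeq2 called 5 of the 10 lower, with 0.296% of all genes lower and 0.203% higher. The median log2 fold change was -0.38 over the 10 genes and 0.0029 over all tested genes. In 6 of the 10, every HSPA1A library lay below every control library, which held for 7.17% of all tested genes. The 10 genes were chosen with earlier results of these data known, so their counts beside all genes are description and no test. Fewer cells with the transcript and less transcript per cell cannot be told apart in these bulk libraries. Without HSPA1A replicate 2, the library that stood apart, 7 of the 10 were called lower, among 4.94% of all tested genes, and 0 higher, against 5.27% of all. Without control replicate 3 only Relb and Nfkbiz were called.

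**Figure D1:**
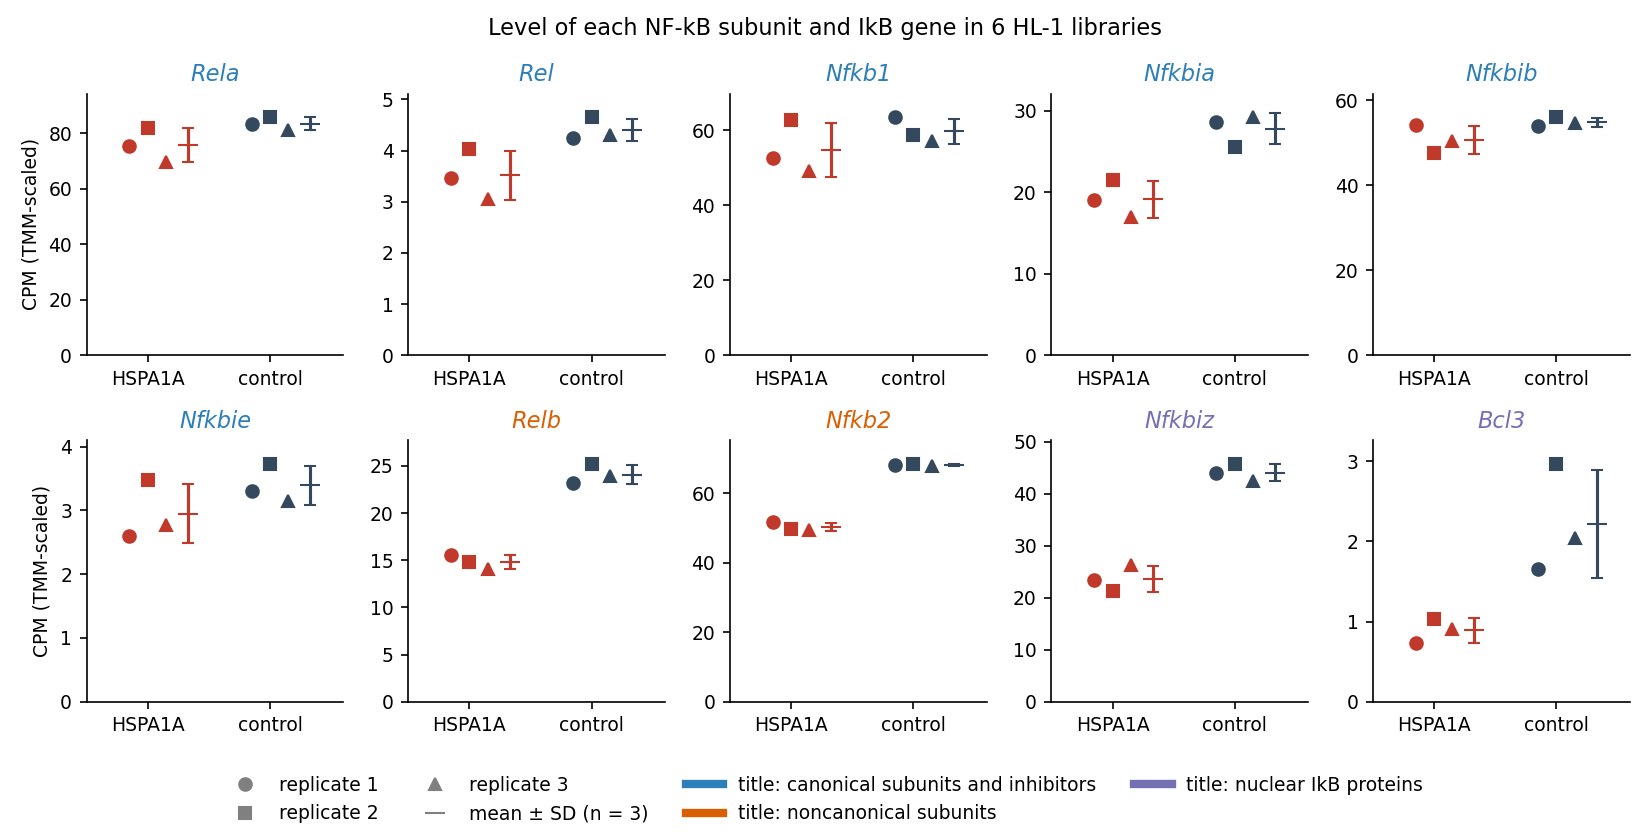
Level of each gene in CPM scaled by TMM (edgeR's trimmed-mean normalisation; linear axes from 0). Marker shapes give the replicate number, the bar beside them the mean and SD of 3 libraries, and title colours the role. The groups stand apart for Relb, Nfkb2, Nfkbiz, Bcl3, Nfkbia and Rel, and overlap for Rela, Nfkb1, Nfkbib and Nfkbie.

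Because several of these genes are known NF-kB targets, promoters of Nfkb2, Nfkbia and Bcl3 are shown with the kB consensus in capitals, the letters NF-kB dimers are known to prefer. The consensus searched was GGG, then a purine, a pair of bases of any kind, a pair of pyrimidines and CC, on both strands, and overlapping matches were joined. RefSeq windows on GRCm38.p6, from 250 bases before to 50 after a start site, were found for 7 of the 10 symbols, all but Relb, Nfkb1 and Nfkbiz. The consensus was in at least 1 window of Nfkb2, Nfkbia, Bcl3, Rel and Nfkbie, and in none of Rela or Nfkbib. It was in at least 1 window of 9.55% of all 27025 genes with a window, and in 8.46% of all 32851 windows of this length. A match of letters is a description, not a binding site. Nfkb2 has 3 windows, of which the first holds a palindrome at position -39 and another match at -11, counted from the first transcribed base as 1. The next one downstream holds a match at -236 and another at 11. Nfkbia has 1 match at -29, Bcl3 has 1 at 3, and Rela is given beside them as a window without a match. Each is written 5′ to 3′ on the gene's strand.
Nfkb2, first start site, chr19:46304487-46304786, plus strand: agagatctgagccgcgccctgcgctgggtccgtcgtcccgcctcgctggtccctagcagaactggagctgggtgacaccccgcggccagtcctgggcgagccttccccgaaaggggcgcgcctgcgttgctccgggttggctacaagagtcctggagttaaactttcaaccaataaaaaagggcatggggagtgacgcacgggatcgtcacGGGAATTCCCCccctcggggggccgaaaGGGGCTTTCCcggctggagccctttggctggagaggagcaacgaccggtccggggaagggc
Nfkb2, next start site, chr19:46305445-46305744, plus strand: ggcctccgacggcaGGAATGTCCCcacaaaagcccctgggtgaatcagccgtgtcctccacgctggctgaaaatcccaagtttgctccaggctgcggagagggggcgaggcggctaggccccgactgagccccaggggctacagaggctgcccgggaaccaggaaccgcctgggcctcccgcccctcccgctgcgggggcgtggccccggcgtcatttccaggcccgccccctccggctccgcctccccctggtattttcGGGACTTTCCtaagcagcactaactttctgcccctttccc
Nfkbia, chr12:55492598-55492897, minus strand: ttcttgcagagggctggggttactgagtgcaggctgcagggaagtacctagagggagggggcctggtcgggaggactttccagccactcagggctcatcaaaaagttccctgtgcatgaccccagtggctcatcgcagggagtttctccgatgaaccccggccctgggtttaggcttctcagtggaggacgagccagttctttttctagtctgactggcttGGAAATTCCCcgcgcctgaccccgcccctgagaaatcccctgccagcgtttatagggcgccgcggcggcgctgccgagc
Bcl3, chr7:19822706-19823005, minus strand: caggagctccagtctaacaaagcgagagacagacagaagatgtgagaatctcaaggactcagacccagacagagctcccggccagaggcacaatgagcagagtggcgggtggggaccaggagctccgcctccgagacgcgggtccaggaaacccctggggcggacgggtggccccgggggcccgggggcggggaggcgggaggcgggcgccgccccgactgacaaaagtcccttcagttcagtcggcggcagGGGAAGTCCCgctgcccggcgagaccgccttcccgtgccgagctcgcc
Rela, chr19:5637291-5637590, plus strand: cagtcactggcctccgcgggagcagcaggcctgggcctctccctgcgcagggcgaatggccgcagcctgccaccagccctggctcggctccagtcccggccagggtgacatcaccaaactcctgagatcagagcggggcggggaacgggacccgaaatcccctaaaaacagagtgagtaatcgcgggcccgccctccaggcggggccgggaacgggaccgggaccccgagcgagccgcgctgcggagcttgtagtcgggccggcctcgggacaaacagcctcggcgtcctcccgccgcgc

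Levels can be compared between genes only per length, so the order of the 10 genes was taken from the authors' FPKM. Rela was the most abundant in both groups, at 25.3 ± 2.7 FPKM in HSPA1A and 29.0 ± 0.9 FPKM in control cells (SD, n = 3 each). Nfkbib came next, at 21.6 ± 0.99 FPKM in HSPA1A and 24.4 ± 0.71 FPKM in control cells. In HSPA1A cells the libraries of Nfkb2 (13.9 ± 0.41 FPKM) and Nfkb1 (12.1 ± 1.9) overlapped, as did those of Nfkb1 and Nfkbia (11.04 ± 1.6), and those of Relb (6.08 ± 0.36) and Nfkbiz (5.18 ± 0.44). In control cells Nfkb2 (19.6 ± 0.26 FPKM), Nfkbia (16.6 ± 1.1) and Nfkb1 (13.7 ± 0.65) followed without overlap of their libraries, then Relb (10.3 ± 0.55) and Nfkbiz (10.1 ± 0.43), whose libraries overlapped. Nfkbie, Bcl3 and Rel were the lowest in both groups, with means from 0.430 to 1.11 FPKM in HSPA1A and from 0.557 to 1.33 FPKM in control cells.

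**Figure D2:**
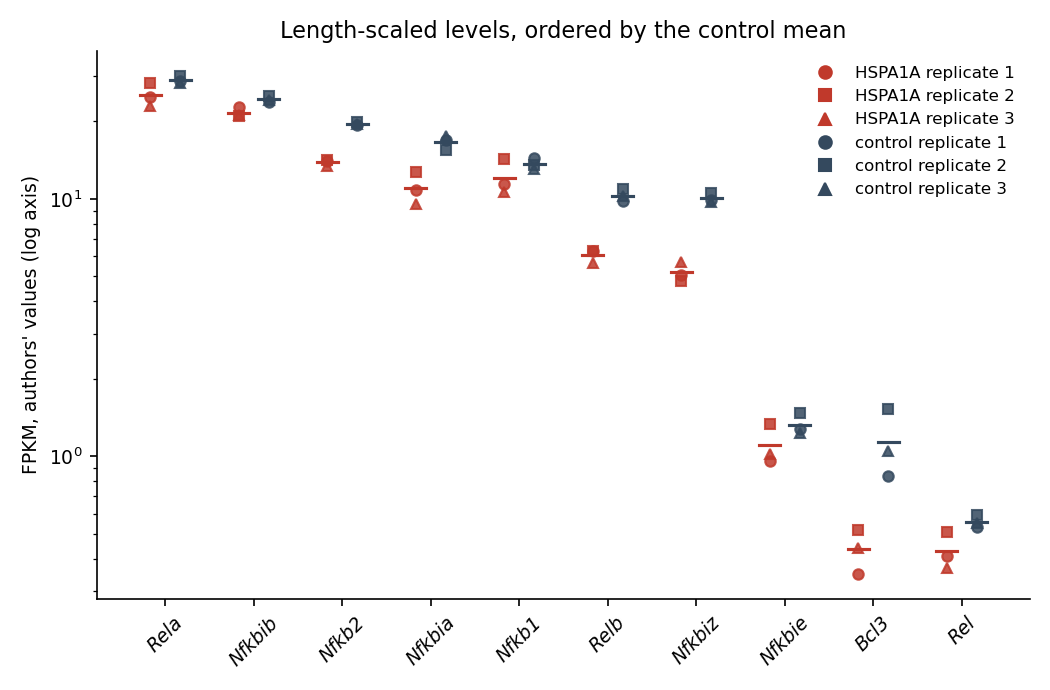
The authors' FPKM of each gene in every library (log axis), ordered by the control mean, with short lines at the group means. Rela and Nfkbib lead in both groups, while Nfkbie, Bcl3 and Rel lie an order of magnitude lower, near 1 FPKM or below.

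Among the canonical subunits, Rela, which encodes the main transactivating subunit p65, stood at 75.4, 81.8 and 69.5 CPM in HSPA1A replicates 1, 2 and 3 and at 83.4, 85.7 and 81.1 CPM in control replicates 1, 2 and 3. HSPA1A replicate 2 fell inside the control range and the other HSPA1A libraries below it. Rela (ENSMUSG00000024927.7, chromosome 19, 5637483 to 5648130, plus strand) had a log2 fold change of -0.14 ± 0.064 (SE), and its 95% interval ran from -0.28 to 0.0015 (adjusted p = 0.585, edgeR's quasi-likelihood test). Nfkb1, the gene of p105 and p50, stood at 52.5, 62.8 and 49.1 CPM in HSPA1A libraries and at 63.4, 58.6 and 57.0 CPM in control libraries. Its groups overlapped in the same way, through HSPA1A replicate 2, and its log2 fold change was -0.12 with an interval from -0.31 to 0.070 (adjusted p = 0.735). Rel, which encodes c-Rel, a subunit best known in lymphoid cells, was scarce, with 81, 109 and 74 reads in HSPA1A and 113, 116 and 114 reads in control libraries. Its groups did not overlap, at 3.52 ± 0.48 CPM in HSPA1A cells against 4.403 ± 0.22 CPM in control cells (SD, n = 3 each). The log2 fold change of -0.32 had an interval from -0.64 to 0.0038 and was not called (adjusted p = 0.586). Without HSPA1A replicate 2, Rela and Nfkb1 were called lower, with log2 fold changes of -0.20 (adjusted p = 0.0244) and -0.23 (adjusted p = 0.0222), and Rel was not (adjusted p = 0.1003).

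Among the canonical inhibitors, Nfkbia had the largest difference. It encodes IkBα, the inhibitor that NF-kB itself induces to end a response. Nfkbia (ENSMUSG00000021025.7, chromosome 12, 55489410 to 55492647, minus strand) stood at 19.0, 21.5 and 16.9 CPM in HSPA1A libraries and at 28.6, 25.6 and 29.2 CPM in control libraries. All 3 HSPA1A libraries lay below the lowest control library. The log2 fold change was -0.54 ± 0.093 (SE), with an interval from -0.74 to -0.33, and missed the threshold over all genes (adjusted p = 0.0650). DESeq2 called it lower (adjusted p = 0.000326), as did edgeR without HSPA1A replicate 2 (adjusted p = 0.000279). Nfkbib, the gene of IkBβ, an inhibitor known for slower breakdown than IkBα, averaged 50.7 ± 3.2 CPM in HSPA1A cells and 54.8 ± 1.1 CPM in control cells (SD, n = 3 each). Its groups overlapped, and the log2 fold change of -0.11 had an interval from -0.24 to 0.018 (adjusted p = 0.627). Nfkbib shares exon sequence with Sirt2 and Ccer2 on the other strand, and whether reads were counted by strand is not stated in the sources used. Sirt2 had 1703 to 1972 reads in HSPA1A and 2004 to 2064 in control libraries, against 1214 to 1290 and 1395 to 1440 for Nfkbib. The log2 fold change of Sirt2 was -0.13 (adjusted p = 0.529, edgeR). Ccer2 was not in the count table. How far Sirt2 reads entered the counts or FPKM of Nfkbib was not tested. Nfkbie, the gene of IkBε, had 61, 94 and 67 reads in HSPA1A and 88, 93 and 83 reads in control libraries. Its log2 fold change of -0.19 had a wide interval, from -0.56 to 0.17 (adjusted p = 0.791).

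Both noncanonical subunit genes fell. Relb encodes RelB, the subunit that carries transactivation in the noncanonical pathway. It stood at 15.5, 14.8 and 14.03 CPM in HSPA1A libraries and at 23.1, 25.2 and 23.9 CPM in control libraries. The highest HSPA1A library was well below the lowest control library, and HSPA1A replicate 2 lay between the other HSPA1A libraries. Relb (ENSMUSG00000002983.14, chromosome 7, 19606217 to 19629438, minus strand) was 1.63 times lower in HSPA1A cells. The log2 fold change was -0.70 ± 0.074 (SE; adjusted p = 0.00241). Its call held in all 6 fits that left out 1 library, with log2 fold changes from -0.74 to -0.67.

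Nfkb2, the gene of p100 and p52, stood at 51.8, 49.8 and 49.5 CPM in HSPA1A libraries and at 68.1, 68.5 and 67.8 CPM in control libraries. Relative to their mean, the libraries of each group lay closer together than for any other of the 10 genes. Nfkb2 (ENSMUSG00000025225.12, chromosome 19, 46304320 to 46312385, plus strand) was 1.35 times lower in HSPA1A cells. The log2 fold change was -0.44 ± 0.049 (SE; adjusted p = 0.00423). The call ended without control replicate 3 (log2 fold change -0.44, adjusted p = 0.0626). Nfkb2 shares exon sequence with AC114539.1 and Psd on the other strand. AC114539.1 was not analysed here, and Psd had 25 to 37 reads in HSPA1A and 29 to 47 reads in control libraries, against at least 1197 reads for Nfkb2 in any library.

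Of the nuclear IkB genes, Nfkbiz encodes IkBζ, a cofactor of p50 dimers at a subset of inflammatory genes. It stood at 23.3, 21.2 and 26.3 CPM in HSPA1A libraries and at 44.0, 45.7 and 42.4 CPM in control libraries. No HSPA1A library came near the control range. Nfkbiz (ENSMUSG00000035356.14, chromosome 16, 55811375 to 55838899, minus strand) was 1.86 times lower in HSPA1A cells. The log2 fold change was -0.90 ± 0.078 (SE), and its adjusted p of 0.000607 was the smallest among the 10 genes. It was called in all 6 fits that left out 1 library. Bcl3, which encodes a nuclear partner of p50 and p52 homodimers, had the largest fitted difference and few reads, 17, 28 and 22 in HSPA1A and 44, 74 and 54 in control libraries. All HSPA1A libraries were lower, at 0.890 ± 0.16 CPM in HSPA1A cells against 2.22 ± 0.68 CPM in control cells (SD, n = 3 each). The log2 fold change of -1.30 ± 0.27 (SE) had an interval from -1.91 to -0.70 and missed the threshold (adjusted p = 0.158). DESeq2 called Bcl3 lower (adjusted p = 0.0290), as did edgeR without HSPA1A replicate 2 (adjusted p = 0.00899). Of the 6 edgeR fits without 1 library, 1 called Bcl3 (adjusted p up to 0.750). Bcl3 also shares exon sequence with Gm16175 on the other strand, a gene that was not in the count table. How far its reads entered the counts of Bcl3 was not tested.

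**Figure D3:**
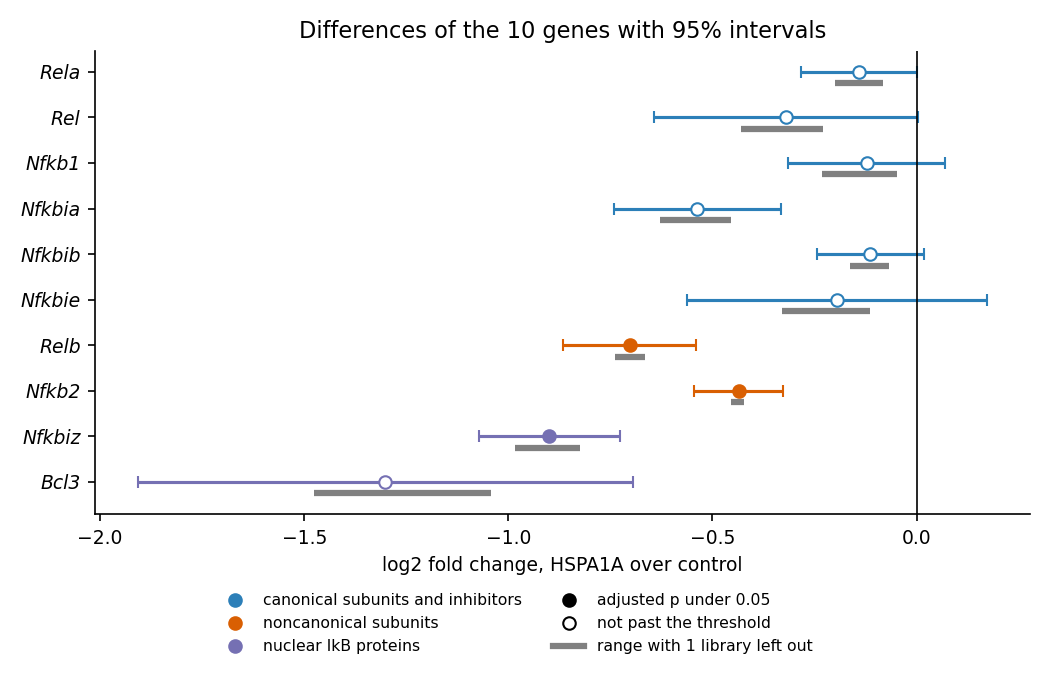
Log2 fold change of each gene, HSPA1A over control, with its 95% interval from edgeR, coloured by role. Filled points passed an adjusted p of 0.05, and grey bars give the range over the 6 fits without 1 library. The intervals of Nfkbia, Relb, Nfkb2, Nfkbiz and Bcl3 lie wholly below 0, and those of the other 5 genes reach it.

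Library by library, the mean distance from control cells was smaller for the canonical than for the noncanonical genes, a difference that was not tested. It did not hold for Nfkbia against Nfkb2 in HSPA1A replicates 1 and 3, or for Rel against Nfkb2 in HSPA1A replicate 3. Set against the control mean of log2 CPM, the 6 canonical genes averaged -0.27, -0.10 and -0.37 in HSPA1A replicates 1, 2 and 3, and between -0.029 and 0.025 in control libraries. HSPA1A replicate 2 was the highest of the 3 HSPA1A libraries for 5 of the 6 canonical genes and the lowest for Nfkbib (-0.20). It lay below every control library for Rel (-0.13), Nfkbia (-0.37) and Nfkbib, and among them for Rela, Nfkb1 and Nfkbie. At -0.54, -0.37 and -0.72 in HSPA1A replicates 1, 2 and 3, Nfkbia lay nearer to Nfkb2 (-0.40, -0.45 and -0.46) than to the canonical mean in each library. The noncanonical pair averaged -0.51, -0.58 and -0.62 in the same HSPA1A libraries, and between -0.028 and 0.038 in control libraries. Here HSPA1A replicate 2, whose Yam1 share of 1.58% lay within the control range, was as low as the other HSPA1A libraries. The nuclear IkB genes averaged -1.24, -1.06 and -0.99 in HSPA1A libraries, and from -0.19 to 0.26 in control libraries, where Bcl3 varied most. In a fit that held Yam1's log2 level as a covariate, the log2 fold changes of Relb (-0.66, adjusted p = 0.102) and Nfkb2 (-0.45, adjusted p = 0.114) changed little in size but were no longer called, and Nfkbiz still was (-1.001, adjusted p = 0.011).

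**Figure D4:**
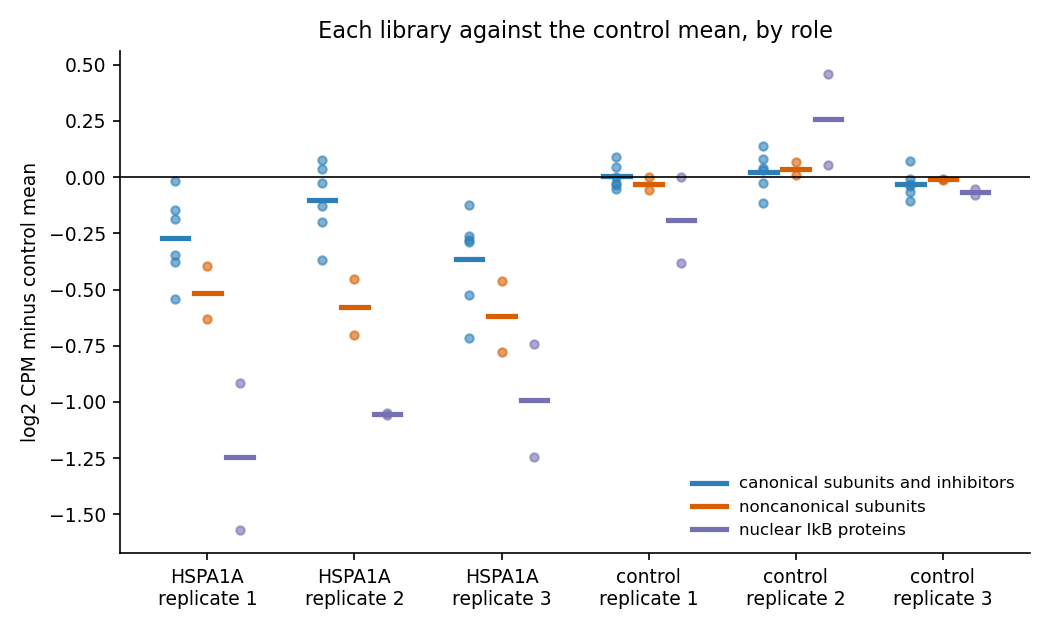
Log2 CPM of each gene minus its control mean, in every library, with 1 point per gene and a bar at the mean of each role. In HSPA1A replicate 2 the mean is -0.10 over the canonical genes, which range from Nfkbia at -0.37 to Nfkb1 at 0.075, and -0.58 and -1.06 over the noncanonical and nuclear IkB genes.

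Ratios of a noncanonical to a canonical subunit gene within a library were taken on the FPKM scale. The ratio of Relb to Rela was 0.253, 0.222 and 0.248 in HSPA1A libraries and 0.341, 0.362 and 0.362 in control libraries. The ratio of Nfkb2 to Nfkb1 was 1.24, 0.994 and 1.27 in HSPA1A libraries and 1.35, 1.47 and 1.49 in control libraries. Between the noncanonical partners, the ratio of Relb to Nfkb2 was 0.447, 0.442 and 0.421 in HSPA1A libraries and 0.505, 0.548 and 0.524 in control libraries. All 3 ratios were lower in every HSPA1A library than in any control library, and as scores over chosen genes they carry no test. The same held between canonical genes, so it is not particular to the noncanonical ones. Nfkbia to Rela was 0.435 ± 0.017 in HSPA1A and 0.575 ± 0.054 in control cells (SD, n = 3 each). Nfkbia to Nfkbib was 0.512 ± 0.083 in HSPA1A and 0.685 ± 0.059 in control cells. Of the summed FPKM of the 5 subunit genes, Rela made up 43.7% ± 0.67 in HSPA1A and 39.7% ± 0.39 in control cells (SD, n = 3 each). Relb made up 10.5% ± 0.59 in HSPA1A and 14.1% ± 0.56 in control cells, and Nfkb2 24.2% ± 1.6 in HSPA1A and 26.8% ± 0.39 in control cells. The summed FPKM itself was 57.9 ± 5.4 in HSPA1A and 73.2 ± 1.7 in control cells. For the 5 IkB family genes the sum was 39.4 ± 1.4 FPKM in HSPA1A and 53.5 ± 0.76 FPKM in control cells. Nfkbib made up 54.9% ± 2.6 of it in HSPA1A and 45.5% ± 0.78 in control cells. Drops between the groups were larger on log2(FPKM + 0.1) than on TMM-scaled counts for all of the 10 genes but Rel and Bcl3. Rela, for example, had a log2 fold change of -0.20 against -0.14. In FPKM the groups of Rela and Nfkbib did not overlap, unlike in CPM.

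Over all 6 libraries, no tested gene of the 4 upstream lists was called by edgeR or DESeq2. None of 16 tested receptor and adaptor genes was called (median log2 fold change -0.0029), and none of 16 genes of the canonical kinases and ubiquitin ligases (median -0.016). In this list, Ikbkb and Chuk, the catalytic IKK genes, had log2 fold changes of -0.024 (95% interval -0.15 to 0.098) and -0.0067 (-0.13 to 0.12). Ikbkg, the gene of the IKK scaffold NEMO, had a wider interval, from -0.32 to 0.33. The noncanonical receptors and kinase control genes were not called either, in 0 of 6 tested (median -0.058), and 5 further genes of that list were too low to test. Map3k14, the gene of the NF-kB-inducing kinase, averaged 6.09 ± 0.87 CPM in HSPA1A cells and 6.23 ± 0.48 CPM in control cells (log2 fold change -0.036, 95% interval -0.33 to 0.26). Ltbr, the lymphotoxin receptor gene, had a log2 fold change of -0.057 (95% interval -0.17 to 0.051), and Tnfsf12, the gene of the ligand TWEAK, one of -0.21 (-0.51 to 0.10). By edgeR at an unadjusted p under 0.05, 1 gene of the receptor and adaptor list was lower, Irak1 (log2 fold change -0.11, adjusted p = 0.567), and 0 of the other 3 upstream lists. Of the IKK-related kinases 0 of 4 were called, and of the nuclear cofactors 0 of 11, by either tool. Among the cofactors Rps3, a ribosomal protein known to bind p65, had the 1 unadjusted p under 0.05, at a log2 fold change of 0.22 (adjusted p = 0.470). Without HSPA1A replicate 2, edgeR called 2 receptor and adaptor genes lower, Ticam1 (log2 fold change -0.22, adjusted p = 0.0211) and the TNF receptor gene Tnfrsf1a (-0.15, adjusted p = 0.0469). In that fit Ikbkg was lower too (-0.23, adjusted p = 0.0351), and Rps3 was higher (0.28, adjusted p = 0.00318).

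Of 12 tested feedback inhibitors, 1 was called lower, Zc3h12a, the gene of Regnase-1, an enzyme that cuts cytokine transcripts (log2 fold change -0.95, adjusted p = 0.000607). Its call held in all 6 fits without 1 library. Over all 6 libraries, 0.156% of all tested genes were called lower. Without HSPA1A replicate 2, the list had 2 genes called lower, Zc3h12a and Pdlim2 (-0.22, adjusted p = 0.0270), and 2 called higher, Commd1 (0.34, adjusted p = 0.00231) and Otulin (0.18, adjusted p = 0.0301). Of all tested genes, 4.94% were called lower and 5.27% higher in that fit. Tnfaip3, the gene of A20 and a well-known NF-kB target that restrains IKK, averaged 36.6 ± 3.5 CPM in HSPA1A cells and 36.3 ± 0.80 CPM in control cells (SD, n = 3 each). Its log2 fold change of 0.0090 had an interval from -0.15 to 0.17, which leaves out a drop of the size seen in Nfkbia, Relb or Nfkb2. Cyld and Otulin, both deubiquitinase genes of the pathway, had log2 fold changes of -0.19 (adjusted p = 0.433) and 0.16 (adjusted p = 0.462). Cyld, Otulin and Tnfaip3 were chosen after their values were seen, as were Commd1, Pdlim2, Ticam1, Tnfrsf1a, Chuk, Ikbkb, Ikbkg and Map3k14.

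Among NF-kB target genes, 7 of 28 tested were called lower and none higher, at a median log2 fold change of -0.36. They were the chemokine genes Cxcl1, Cxcl5, Ccl2 and Ccl7, the complement gene C3, the lipocalin gene Lcn2 and the stress-response gene Ier3, with log2 fold changes from -1.78 (Cxcl1) to -0.37 (Ier3). Over all tested genes edgeR called 0.156% lower, at a median log2 fold change of 0.0029. DESeq2 called 9 of the 28 lower, against 0.296% of all. Without HSPA1A replicate 2 edgeR called 13 of the 28 lower, where 4.94% of all tested genes were. Without each of the other libraries it called 5 or 6 lower, and none was higher in any of these fits. The calls of the chemokine genes and C3 held in all 6 fits without 1 library. Lcn2 lost its call without HSPA1A replicate 1, control replicate 2 or control replicate 3 (adjusted p up to 0.143). Ier3 kept its call in 1 of the 6, the fit without HSPA1A replicate 2. Other well-known targets were not called, among them Sod2, the gene of mitochondrial superoxide dismutase (log2 fold change -0.047, 95% interval -0.16 to 0.067), and Tnfaip2 (-0.070, -0.19 to 0.054), both named after their values were seen. The target list and the feedback list share their HSPA1A and control libraries with the 10 genes, so they are no separate evidence. Both lists were also chosen with earlier results of these data known, so their counts beside all genes are description and no test.

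**Figure D5:**
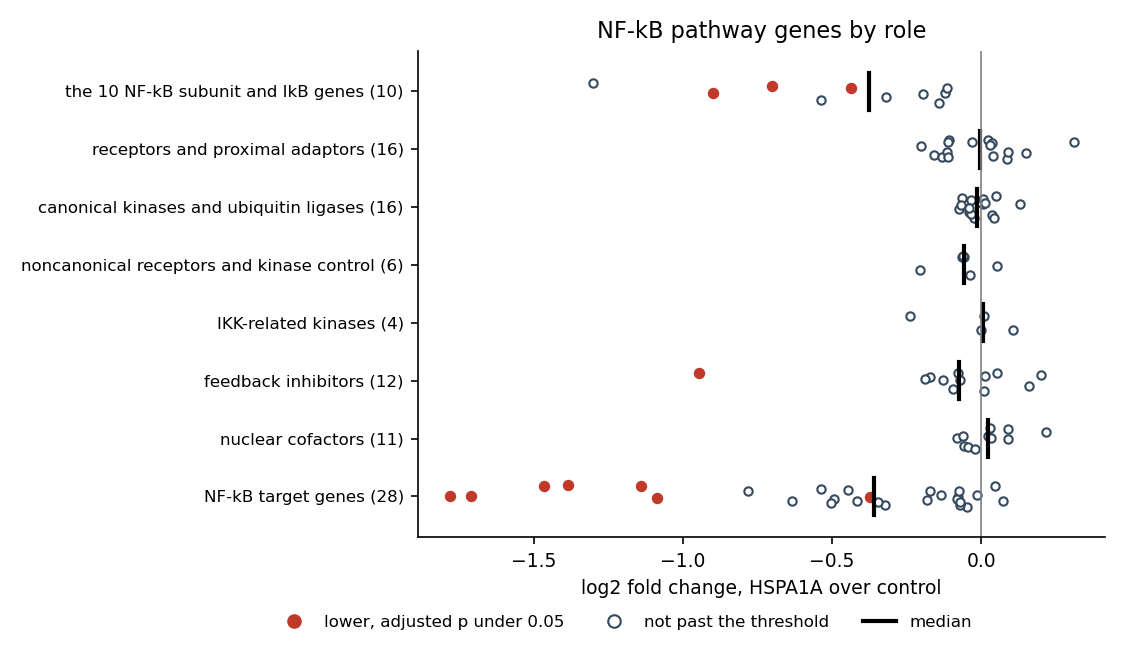
Log2 fold change, HSPA1A over control, of every tested gene in each list, with the number tested in parentheses and a bar at the median. Filled points were called lower at an adjusted p under 0.05: 3 of the 10 subunit and IkB genes, 1 of 12 feedback inhibitors, 7 of 28 target genes, and none in the upstream and cofactor lists.

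Among 9716 other genes with a mean of at least 5 CPM, likeness to a called gene was measured as the mean absolute difference of the centred log2 CPM over the 6 libraries. Nearest to Relb were Slc11a2, an iron transporter gene, Ntn1, the netrin 1 gene, and the chemokine gene Ccl5, at 0.073, 0.080 and 0.089. Nearest to Nfkb2 were Zfpm2, the gene of a GATA cofactor, Itpripl2 and the semaphorin gene Sema4b, at 0.042, 0.044 and 0.049. Nearest to Nfkbiz were the collagen gene Col8a1, Zc3h12a and Ccl2, at 0.064, 0.12 and 0.13. Of these 9 genes, 6 were themselves called lower, against 0.156% of all tested genes. Likeness was taken over both groups, so genes near a called gene share its group difference by selection. Their calls are therefore no separate evidence. Ntn1 and Itpripl2 were called in 1 and 2 of the 6 fits without 1 library. Ccl5, Zfpm2 and Sema4b were not called over all 6 libraries (adjusted p = 0.0621, 0.0621 and 0.102).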

How the data were processed

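RNA-seq libraries of 3 HSPA1A and 3 control samples were compared, grouped and numbered as labelled. Per the submitters' processing notes, the tools were bcl2fastq, TopHat2 and edgeR on GRCm38. How reads were counted, with or without strand, and on which annotation is not stated in the sources used. The authors deposited whole read counts for 22913 genes and FPKM for 22833 of them, rounded to hundredths; 0 columns were unused. Gene positions came from GENCODE M21 (GRCm38), where 22729 identifiers were found.

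Genes were filtered with filterByExpr (minimum count 10, minimum total 15), scaled by TMM and tested with glmQLFTest of edgeR 4.0.16 (R 4.3.3), with Benjamini-Hochberg adjustment over 12827 genes and a threshold of 0.05. Fold changes are HSPA1A over control. The fit was tested on simulated data. Alternatives used DESeq2 1.42.0 and limma 3.58.1. Figures used matplotlib 3.10.9. Promoter windows came from RefSeq (GRCm38.p6).

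The 10 genes and the lists were chosen with earlier results of these data known. Named were all 10, every called gene of a pathway list or otherwise up to 2 with the smallest p, and the 3 genes most like each of Relb, Nfkb2 and Nfkbiz.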

Additional observations from a re-analysis of the deposited data

How the results depend on the processing

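Direction held for 9 of the 10 genes in every alternative that gave them a value; Nfkbie alone reversed, at a log2 fold change of 0.027 with Yam1 as a covariate. With that covariate 1 of the 10 genes (Nfkbiz) and 8 of all genes were lower, and Relb (-0.66) and Nfkb2 (-0.45) lost their calls. The covariate is partly confounded with the group (log2 fold change of Yam1 0.72). DESeq2 and edgeR with no filter on low counts each called 5 of the 10 lower, adding Nfkbia (-0.54 and -0.54) and Bcl3 (-1.31 and -1.31). Over all genes DESeq2 called 26 higher and 38 lower, and edgeR without a filter 94 and 111. One gene was called higher with DESeq2-type size factors, with library totals alone and with a filter of 5 CPM in 3 libraries (1 each), and 0 in the 3 limma fits of FPKM. The same-numbered libraries did not deviate together (r = -0.10, -0.0015 and 0.085), and not every library correlated best with its own number. With 3 libraries per group, these values cannot show whether same-numbered libraries were prepared together. With the replicate block 13 genes were lower over all and the calls of the 10 genes stayed as they were. Leaving out 1 library gave 0 to 683 genes higher and 10 to 640 lower over all, and 2 to 7 of the 10 lower. Those fits gave log2 fold changes of -0.20 to -0.083 for Rela, -0.23 to -0.047 for Nfkb1, -0.63 to -0.45 for Nfkbia, -0.46 to -0.42 for Nfkb2 and -1.48 to -1.04 for Bcl3. Rel, Nfkbie and Bcl3 were below the 5 CPM filter, and Rel and Bcl3 below a mean of 1 FPKM, so those fits gave no value for them. With 17 to 116 reads per library, Rel, Nfkbie and Bcl3 limit what can be resolved.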
